A study of Homo sapiens with 3 samples.

Results

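The 10 genes described here encode 9 membrane transporters of the ATP-binding cassette (ABC) family, most of them linked to drug efflux, and the major vault protein. They were taken by symbol, with no limit on level, from the 58735 genes of the deposited single-cell matrices: ABCB1, ABCC1, ABCC2, ABCC3, ABCC4, ABCC5, ABCC10, ABCG2, ABCA1 and MVP. The set was chosen with earlier results of these data known. The label of the set fits 9 of its 10 members by family, since MVP is no transporter, and ABCA1 is known mainly for exporting cholesterol and phospholipid rather than drugs.

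The study profiled FaDu cells, an established line of human hypopharyngeal squamous carcinoma, and a FaDu line resistant to TPF, a chemotherapy combination of a taxane, a platinum drug and a fluoropyrimidine. There were 3 libraries, 1 for each group. The FaDu cinobufotalin library held parental cells given cinobufotalin, a bufadienolide steroid of toad venom. The resistant TPF library held resistant cells given TPF, and the resistant TPF cinobufotalin library held resistant cells given both TPF and cinobufotalin. Every group thus carried at least 1 agent, and untreated cells of either line were not analysed here. Only the 2 resistant libraries differ by a single labelled factor, cinobufotalin. Both differ from the FaDu cinobufotalin library in cell line and in treatment at once, and the contributions of these cannot be told apart. The sources used here give no doses or times and do not say whether the resistant line is 1 clone. Because n = 1 library in each group, groups were not tested against each other, and the 95% Clopper-Pearson intervals below cover nothing beyond counting error.

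An ABC transporter couples the binding and hydrolysis of ATP by its nucleotide-binding domains to a change of shape of its membrane-spanning domains, which moves a substrate out of the cell or into a compartment. ABCB1 (P-glycoprotein), the multidrug resistance proteins of the ABCC subfamily and ABCG2 export overlapping sets of drugs, and several ABCC proteins carry drugs joined to glutathione or glucuronate. Taxanes are classic substrates of ABCB1, while ABCC5 is known for exporting cyclic nucleotides and fluoropyrimidine monophosphates.

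The kept cells numbered 6123, 4862 and 7525 in the order FaDu cinobufotalin, resistant TPF and resistant TPF cinobufotalin, with totals of 134802289 to 165847771 UMIs (unique molecular identifiers, counted as RNA molecules). All values below follow this order of libraries. Levels are given as CPM, UMIs per 1000000 UMIs of the library. The libraries stood apart in ways that touch every ratio to the FaDu cinobufotalin library. The median gene, over 14656 genes with a mean of at least 1 CPM, had a log2 ratio of 0.45 in resistant TPF and 0.40 in resistant TPF cinobufotalin over FaDu cinobufotalin, but -0.06 between the resistant libraries. The median share of the nuclear RNA MALAT1 was 0.0892%, 0.795% and 0.731% of the UMIs of a cell. The part of these shifts in the results below was tested only as far as the values for matched cells and other scalings go. All 11 squamous epithelial markers were measured, at a summed 6743, 4955 and 3796 CPM. A level of 5 CPM was reached by 0 of 10 fibroblast markers, by 0 of 14 immune markers and by 1 of 9 endothelial markers, ERG. The libraries shared 9 to 13 cell barcodes pairwise and 0 across all 3.

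Of the 10 members, 9 reached a mean of 1 CPM, and ABCG2, at 0.881 CPM, did not. Between resistant TPF cinobufotalin and resistant TPF, 0 of these 9 differed by 1.5-fold, where 0.430% of all genes were higher and 0.778% lower by that much. In resistant TPF over FaDu cinobufotalin 4 of 9 were at least 1.5-fold higher, namely ABCB1, ABCC2, ABCC5 and ABCA1, against 41.0% of all genes, and 0 were lower against 2.07%. In resistant TPF cinobufotalin over FaDu cinobufotalin 4 of 9 were higher, namely ABCB1, ABCC4, ABCC5 and ABCA1, against 38.6%, and 0 were lower against 4.18%. These shares of members lie near those of all genes, so the counts say nothing particular about the efflux genes. The last pair of comparisons shares its reference library. The members' median log2 ratio was 0.05, 0.52 and 0.47 in the order above, beside -0.06, 0.45 and 0.40 for all genes.

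The start regions of the 4 members that were at least 1.5-fold higher in resistant TPF than in FaDu cinobufotalin are shown. They were grouped by that limit alone, which 41.0% of all genes passed. RefSeq start windows (GRCh38.p14) were available for 8 of the 10 members, and ABCC1 and ABCC3 had none in the table used. The part of each window that lies outside every exon of the gene in GENCODE 29 is printed 5′ to 3′ on the strand of the gene, which for ABCB1 lies inside the annotated gene, and capitals mark a match, on either strand, to CCAAT (the CCAAT box), GGGCGG (the GC box), TATAAA (the TATA box) or CACGTG (the E-box).
ABCB1, chr7:87601079-87601134, minus strand: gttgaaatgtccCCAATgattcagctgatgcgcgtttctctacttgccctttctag
ABCC2, chr10:99782390-99782639, plus strand: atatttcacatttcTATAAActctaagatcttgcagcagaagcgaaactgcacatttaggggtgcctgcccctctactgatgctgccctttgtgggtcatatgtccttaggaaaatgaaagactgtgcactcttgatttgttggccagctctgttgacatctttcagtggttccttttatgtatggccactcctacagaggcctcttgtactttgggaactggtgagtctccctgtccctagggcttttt
ABCC5, chr3:184018016-184018134, minus strand: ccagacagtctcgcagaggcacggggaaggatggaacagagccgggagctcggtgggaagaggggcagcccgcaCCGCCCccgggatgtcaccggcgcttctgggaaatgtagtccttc
ABCA1, chr9:104928238-104928405, minus strand: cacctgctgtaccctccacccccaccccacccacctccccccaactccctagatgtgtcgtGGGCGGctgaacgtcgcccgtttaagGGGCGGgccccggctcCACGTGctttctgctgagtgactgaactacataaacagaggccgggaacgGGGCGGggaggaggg

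The whole window of 250 bases before each RefSeq start was searched. ABCB1 has 2 such windows, and only the one inside the annotated gene held a match, a CCAAT box in each orientation. The inverted one starts 79 bases before the RefSeq start, inside an exon of GENCODE models that begin further upstream, and reads as follows.
ABCB1 inverted CCAAT box, chr7:87600949-87600973: ggtgaggctgATTGGctgggcagga
ABCC5 held 1 GC box and 1 TATA box, ABCA1 held 3 GC boxes, 1 E-box and 1 TATA box, and ABCC2 held 1 TATA box. The TATA boxes of ABCC5 and ABCA1 lie 28 and 31 bases before the start, that of ABCC2 236 bases before it. No motif was present in all 4 genes. Over 34943 RefSeq windows of the same length, 32.0% held a CCAAT box, 42.5% a GC box, 10.8% a TATA box and 6.32% an E-box. TGACNNNGC, the core of the antioxidant response element, was in 10.9% of all windows, in ABCC4 and in 1 of the 2 windows of ABCC10, and in none of the windows of these 4 genes. The windows of the 4 genes ranged from 39.2% G and C bases in the outer window of ABCB1 to 64.8% in ABCC5.

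ABCB1, the P-glycoprotein drug pump (chr7:87503633-87713323), had the widest spread of the members between libraries. It was at 0.989, 2.94 and 3.35 CPM, from 164, 398 and 451 UMIs. The FaDu cinobufotalin library was the low one, and the intervals of the resistant libraries overlapped each other. ABCB1 was 2.98-fold higher (2.48 to 3.59) in resistant TPF and 3.38-fold higher (2.82 to 4.07) in resistant TPF cinobufotalin than in FaDu cinobufotalin. Of all genes, 95.7% and 97.3% had a lower ratio in these comparisons. Between the resistant libraries the log2 ratio was 0.18 (-0.01 to 0.38). Under TMM factors, which scale the libraries to a trimmed mean of gene ratios, ABCB1 was still 1.01 and 1.24 log2 units above FaDu cinobufotalin, the only member more than 1.5-fold higher under that scaling among those at 1 CPM or more. The nearest measured genes that do not overlap ABCB1 did not share its ratio in resistant TPF over FaDu cinobufotalin. CROT was at -0.09 and SLC25A40 at 0.52 on the log2 scale. RUNDC3B, which overlaps ABCB1 on the opposite strand, was also lowest in FaDu cinobufotalin, at 0.766, 2.30 and 1.93 CPM. The higher level in the resistant libraries was thus not particular to ABCB1 at this locus. Reads of ABCB1 and RUNDC3B cannot be told apart if strand was not used in counting.

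ABCG2, the breast cancer resistance protein (chr4:88090264-88231322), was at 0.488, 0.991 and 1.17 CPM, from 81, 134 and 157 UMIs. As for ABCB1, FaDu cinobufotalin was lowest and the intervals of the resistant libraries overlapped. ABCG2 was 2.03-fold (1.53 to 2.71) and 2.38-fold (1.81 to 3.16) higher in resistant TPF and resistant TPF cinobufotalin than in FaDu cinobufotalin. Its neighbour PKD2 had a log2 ratio of 1.01 in the first of these comparisons, beside 1.02 for ABCG2.

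**Figure D1:**
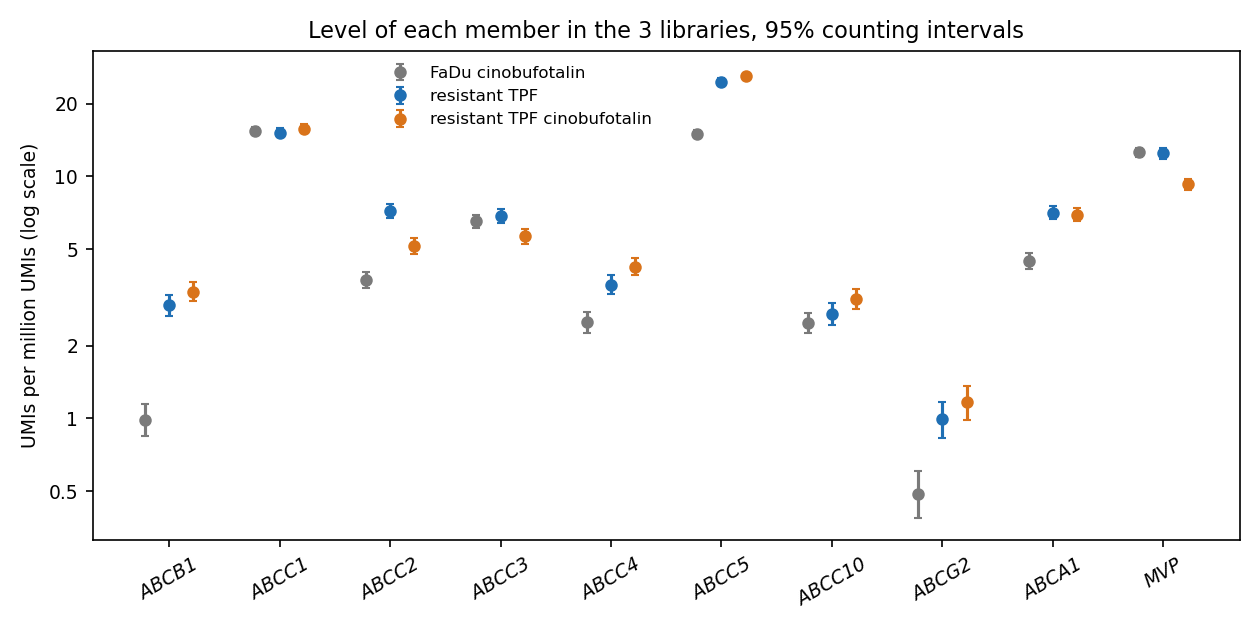
Level of each of the 10 members in the 3 libraries, in CPM on a log axis; points are libraries and bars 95% counting intervals. ABCB1, ABCC2, ABCC4, ABCC5, ABCC10, ABCG2 and ABCA1 are lowest in FaDu cinobufotalin. ABCC1 is at 15.2 to 15.8 CPM in all 3 libraries, and the intervals of ABCC2 and MVP do not overlap between the resistant libraries.

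Among the ABCC proteins, which export organic anions and conjugates, ABCC5 (chr3:183919934-184018015) was at 15.0, 24.6 and 25.9 CPM. Both resistant libraries were above FaDu cinobufotalin and close to each other. The ratio to FaDu cinobufotalin was 1.64-fold (1.56 to 1.73) in resistant TPF and 1.73-fold (1.64 to 1.82) in resistant TPF cinobufotalin. Cinobufotalin-treated resistant cells differed from the other resistant library by a log2 ratio of 0.07 (0.00 to 0.14). The neighbours PARL and EIF2B5 were at 0.07 and 0.06 on the log2 scale in resistant TPF over FaDu cinobufotalin, beside 0.71 for ABCC5. With TMM factors the ABCC5 value fell to 0.15.

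ABCC4, an exporter of cyclic nucleotides, prostaglandins and nucleoside analogues (chr13:95019829-95301475), was at 2.50, 3.57 and 4.24 CPM. It was lowest in FaDu cinobufotalin and highest in resistant TPF cinobufotalin. The log2 ratio between the resistant libraries was 0.25 (0.07 to 0.43), higher than that of 93.9% of all genes. Against FaDu cinobufotalin it was 0.52 in resistant TPF and 0.77 in resistant TPF cinobufotalin, and -0.05 and 0.24 with TMM factors. GPR180 and DZIP1, the measured genes on either side, had log2 ratios of 0.91 and 1.10 in resistant TPF over FaDu cinobufotalin.

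ABCC1, the first multidrug resistance protein described in this subfamily (chr16:15949577-16143074), was at 15.4, 15.2 and 15.8 CPM, with overlapping intervals throughout. Its log2 ratios were -0.02 and 0.03 against FaDu cinobufotalin and 0.05 between the resistant libraries. Since the median gene was higher in the resistant libraries, an equal CPM placed ABCC1 above only 18.3% of genes in resistant TPF over FaDu cinobufotalin, and with TMM factors it was at -0.59. ABCC1 spans 193 kb, and genes of at least 100 kb had a median log2 ratio of 0.84 in that comparison, against 0.24 for genes under 30 kb. ABCA1 and ABCC4 are also of that length class, and at 0.66 and 0.52 they too lay below its median, while ABCB1, at 1.57, lay above it. ABCC10, a broad-range exporter that accepts taxanes (chr6:43427366-43450430), was at 2.48, 2.70 and 3.12 CPM. Its log2 ratio between the resistant libraries was 0.21 (0.00 to 0.41). DLK2, on the opposite strand across part of ABCC10, was at 23.9, 12.1 and 11.3 CPM, so the ABCC10 level is uncertain where strand was not used.

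ABCC2, the apical exporter of conjugates and of cisplatin joined to glutathione (chr10:99782640-99852594), showed the lowest ratio of the members between the resistant libraries. It was at 3.74, 7.21 and 5.16 CPM, from 620, 974 and 696 UMIs. Resistant TPF was the high library, and the 3 intervals did not overlap. ABCC2 was 1.93-fold higher (1.74 to 2.13) in resistant TPF than in FaDu cinobufotalin, and 1.40-fold lower in resistant TPF cinobufotalin than in resistant TPF (log2 ratio -0.48, interval -0.62 to -0.34). Only 2.05% of all genes had a lower ratio in that last pair. Its neighbours CUTC and DNMBP were at -0.005 and 0.33 there.

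ABCC3, the basolateral counterpart of ABCC2 with a like range of conjugates (chr17:50634777-50692252), was at 6.53, 6.87 and 5.65 CPM. It was lowest in resistant TPF cinobufotalin, with a log2 ratio of -0.28 (-0.42 to -0.14) to resistant TPF. Its neighbour SPATA20 was at -0.36 in the same pair and ANKRD40 at 0.06. ABCA1, the cholesterol exporter that loads lipid onto apolipoprotein A-I (chr9:104781002-104928237), was at 4.47, 7.08 and 6.96 CPM. Its intervals overlapped between the resistant libraries (log2 ratio -0.02, -0.16 to 0.11), and both lay above FaDu cinobufotalin. The ratio to FaDu cinobufotalin was 1.58-fold in resistant TPF, and the log2 value of 0.66 became 0.09 with TMM factors.

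MVP, the main protein of the ribonucleoprotein particles called vaults and a marker often raised in drug-resistant lines (chr16:29820394-29848039), was at 12.6, 12.4 and 9.26 CPM, from 2090, 1681 and 1248 UMIs. Resistant TPF cinobufotalin was the low library, with an interval of 8.75 to 9.79 CPM that lay below both others. MVP was 1.34-fold lower there than in resistant TPF (log2 ratio -0.43, interval -0.53 to -0.32), and 3.49% of all genes had a lower ratio. PAGR1 and CDIPT, the genes on either side, were at -0.02 and -0.18. AC009133.1, an antisense gene within the MVP locus, had 162, 270 and 263 UMIs.

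**Figure D2:**
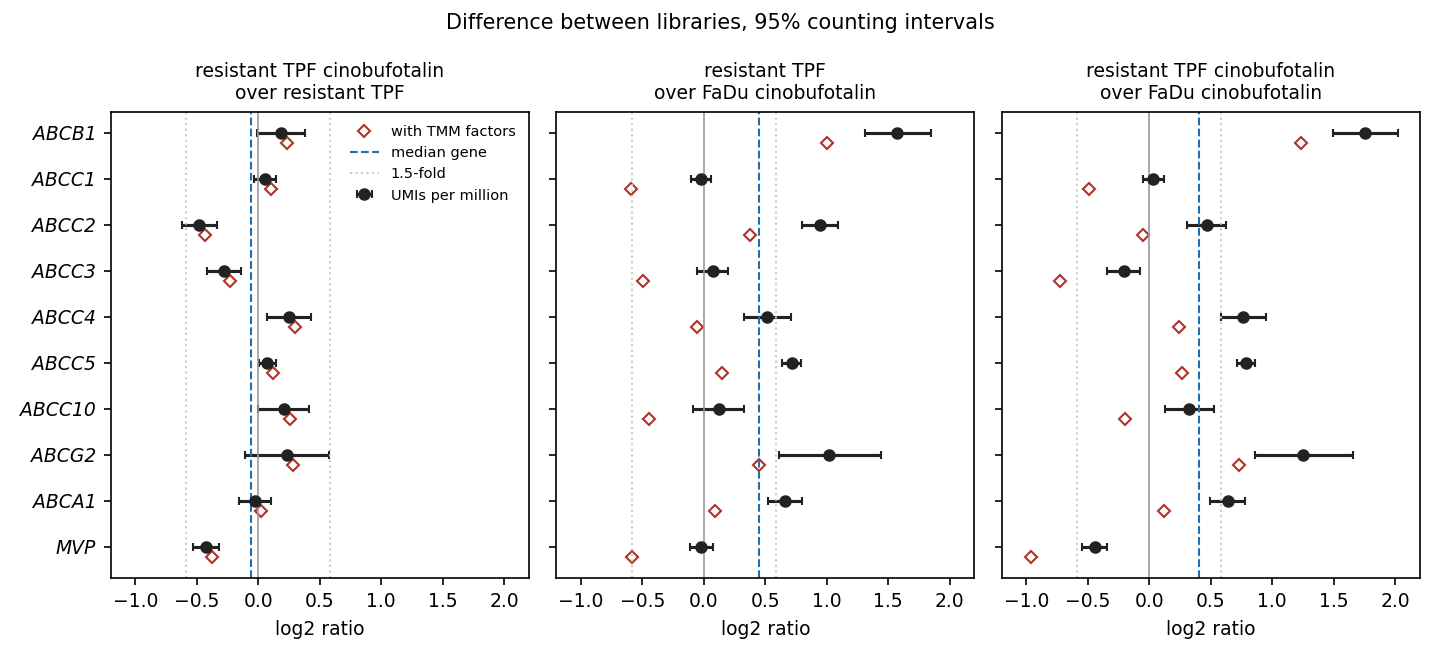
Log2 ratio of each member in the 3 pairs of libraries; black points with 95% counting intervals are ratios of CPM, red diamonds use TMM factors, the dashed line is the median gene and dotted lines mark 1.5-fold. ABCC2 and MVP are the lowest members between the resistant libraries, and TMM factors place ABCC1, ABCC3, ABCC10 and MVP below 0 in both comparisons with FaDu cinobufotalin.

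The direction of several members against FaDu cinobufotalin thus depended on the scaling. With TMM factors (0.778, 1.15 and 1.12), of the 9 members at 1 CPM or more only ABCB1 passed 1.5-fold upward in each comparison with FaDu cinobufotalin. Of all genes, 12.7% did so in resistant TPF and 14.1% in resistant TPF cinobufotalin. In resistant TPF, ABCC1 and MVP then passed it downward, against 18.6% of all genes, and in resistant TPF cinobufotalin ABCC3 and MVP did, against 21.8%. Centred on the median gene, ABCB1 alone of the 9 was higher in each, against 16.8% and 18.5% of all genes. With that centring 0 members were lower in resistant TPF, against 13.1%, while ABCC3 and MVP were lower in resistant TPF cinobufotalin, against 15.8%. ABCG2, under 1 CPM, was at 0.73 with TMM factors and 0.85 when centred in resistant TPF cinobufotalin over FaDu cinobufotalin, which is also past 1.5-fold. The share of genes above 0 was 80.4% as CPM and 42.1% with TMM factors in resistant TPF over FaDu cinobufotalin. Under CPM, TMM factors and median centring alike, 0 of the 9 members passed 1.5-fold between the resistant libraries, where 0.600% of all genes were higher and 0.498% lower with TMM factors, and 0.621% and 0.484% when centred.

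Cells were also compared at a like share of MALAT1, among cells with 2% to 8% mitochondrial UMIs and at least 10000 UMIs. At 0.3% to 1% MALAT1 there were 881, 1706 and 2559 cells, and the median gene of resistant TPF over FaDu cinobufotalin was at 0.26. ABCB1 was at 1.42, 2.91 and 3.58 CPM in these cells, a log2 ratio of 1.03 (0.47 to 1.64) in resistant TPF over FaDu cinobufotalin. In cells at 1% to 2% MALAT1 its ratio was 1.93 (0.84 to 3.28), and at 0.05% to 0.3% it was -0.46 (-1.27 to 0.29), from 61 UMIs in FaDu cinobufotalin and 20 in resistant TPF. The upper bound of 0.29 lies below the 1.57 of all kept cells. At 0% to 0.05% MALAT1 only 24 and 3 UMIs were counted, and the interval ran from -1.58 to 2.51. The higher ABCB1 level of resistant TPF was thus present in the classes richer in MALAT1 and not in the class at 0.05% to 0.3%. In resistant TPF cinobufotalin over FaDu cinobufotalin the ABCB1 ratio was 1.33 (0.78 to 1.93) at 0.3% to 1% MALAT1 and 1.86 (0.77 to 3.21) at 1% to 2%. It was 0.25 (-0.43 to 0.90) at 0.05% to 0.3%, with an upper bound below the 1.76 of all kept cells. At 0% to 0.05% it was 0.29 (-1.70 to 1.83), from 4 UMIs in resistant TPF cinobufotalin.

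ABCC2 had no interval above 0 in resistant TPF over FaDu cinobufotalin once MALAT1 was matched. It was at 5.73 CPM in FaDu cinobufotalin and 5.11 CPM in resistant TPF at 0.3% to 1% MALAT1, a log2 ratio of -0.17 (-0.48 to 0.15), against 0.95 in all kept cells. At 1% to 2% its ratio was 0.12 (-0.31 to 0.56), and at 0% to 0.05% it was -0.16 (-2.08 to 1.27). At 0.05% to 0.3% it was -0.63 (-1.17 to -0.12), with an interval below 0. In resistant TPF cinobufotalin over FaDu cinobufotalin ABCC2 was at 0.47 in all kept cells. In that pair it was at -0.56 (-0.88 to -0.23) at 0.3% to 1% MALAT1 and -0.70 (-1.27 to -0.16) at 0.05% to 0.3%. At 1% to 2% it was at -0.16 (-0.60 to 0.30), and at 0% to 0.05% at -0.76 (-2.43 to 0.54). Within every library ABCC2 was higher at 1% to 2% than at 0% to 0.05% MALAT1, as in FaDu cinobufotalin with 7.86 against 1.96 CPM. In resistant TPF over FaDu cinobufotalin ABCC5 was at 0.33 (0.17 to 0.49) at 0.3% to 1% MALAT1, against 0.71 in all kept cells. ABCA1 was at 0.55 (0.20 to 0.90) there. Both intervals hold the 0.26 of the median gene of that class. ABCC1, ABCC3 and MVP were lower in resistant TPF than in FaDu cinobufotalin in that class, at -0.41, -0.60 and -0.43, with intervals below 0. At 0.3% to 1% MALAT1, ABCC2 and MVP were also lower in resistant TPF cinobufotalin than in resistant TPF, with log2 ratios of -0.39 (-0.66 to -0.13) and -0.31 (-0.49 to -0.12). At 1% to 2% MALAT1 ABCC2 was at -0.27 (-0.55 to 0.00) and MVP at -0.52 (-0.76 to -0.30). At 0.05% to 0.3% they were at -0.06 (-0.75 to 0.62) and -0.30 (-0.67 to 0.06). At 0% to 0.05% MALAT1 MVP was at 0.46 (-0.44 to 1.42), from 15 and 39 UMIs. The lower levels thus had intervals below 0 for MVP in the classes above 0.3% MALAT1 and for ABCC2 in the class at 0.3% to 1%.

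**Figure D3:**
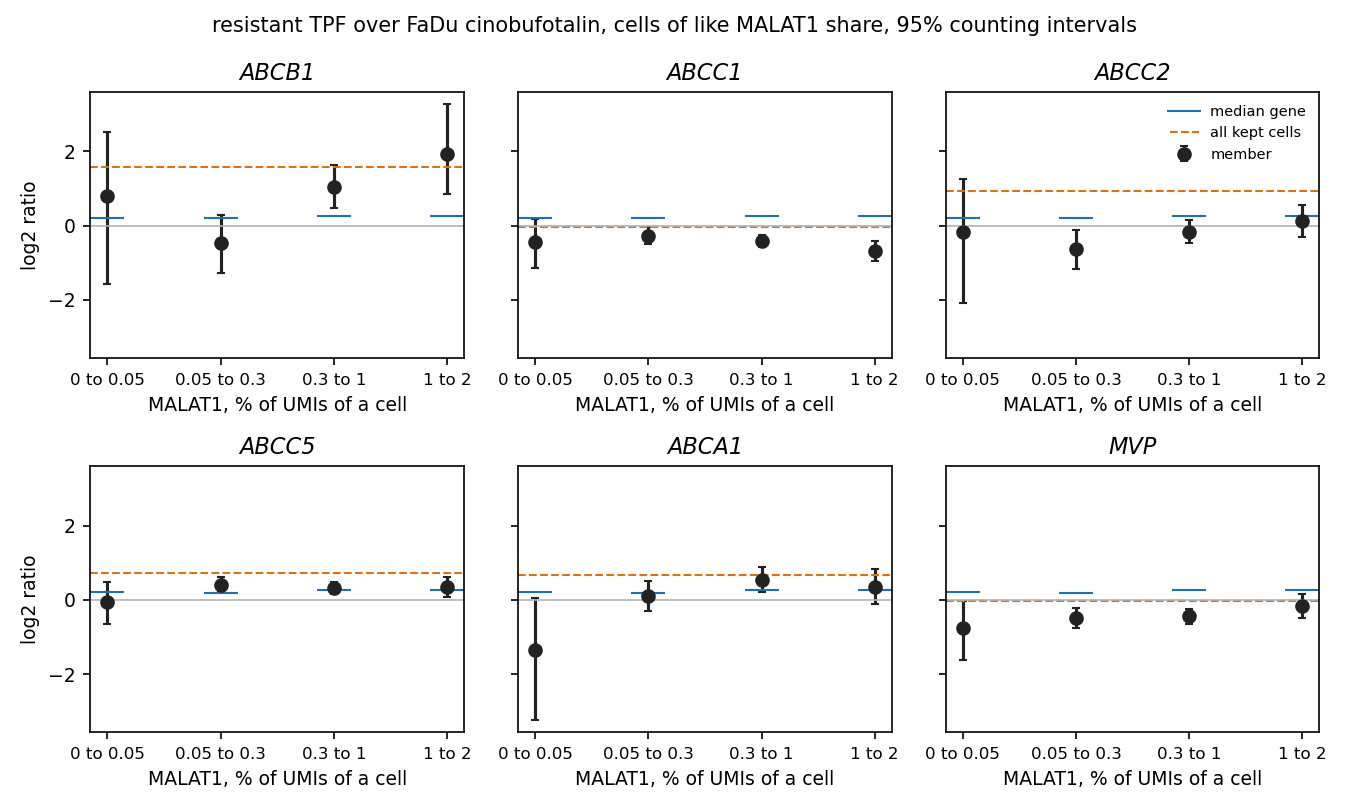
Log2 ratio of 6 members in resistant TPF over FaDu cinobufotalin among cells of a like MALAT1 share; points carry 95% counting intervals, blue dashes are the median gene of the class and the dashed line is the ratio over all kept cells. ABCC2 lies at -0.63 to 0.12 in the 4 classes, under its 0.95 over all cells, while ABCB1 is at 1.03 and 1.93 in the classes richest in MALAT1.

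Cell cycle phases were called from S and G2/M gene lists in cells thinned to 5000 UMIs, and no member is on those lists. Cells called G1 numbered 1599 of 5979, 779 of 4657 and 1112 of 6954. The call is a range of a score and not a cell type: 40.7%, 18.6% and 22.8% of cells had a score within 0.05 of the limit for G1. ABCC2 was at 15.4 CPM in G1, 6.61 in S and 5.50 in G2/M in resistant TPF, and at 9.31, 4.83 and 4.30 CPM in resistant TPF cinobufotalin. In FaDu cinobufotalin it was at 5.06, 5.43 and 2.98 CPM. ABCC2 was thus higher in G1 than in G2/M in each library, by 2.80-fold in resistant TPF, 2.16-fold in resistant TPF cinobufotalin and 1.70-fold in FaDu cinobufotalin.

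ABCC3, ABCA1 and MVP were also higher in G1 than in G2/M in the resistant libraries. In resistant TPF the ratio was 2.13-fold for ABCC3, 1.87-fold for ABCA1 and 2.12-fold for MVP, and in resistant TPF cinobufotalin it was 1.96-fold, 1.84-fold and 1.76-fold. In FaDu cinobufotalin the same genes were at 1.16-fold, 1.12-fold and 1.24-fold, and the difference between libraries was not tested. In all, 4 of 9 members were at least 1.5-fold higher in G1 in resistant TPF against 13.7% of genes, 4 of 9 in resistant TPF cinobufotalin against 11.0%, and 1 of 9 in FaDu cinobufotalin against 4.47%. ABCC5 did not follow this pattern, with G1 over G2/M ratios of 1.02-fold to 1.05-fold in the 3 libraries. ABCB1 had no common direction: its log2 ratio was -0.42, 0.28 and -0.35, with intervals across 0 in each library.

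**Figure D4:**
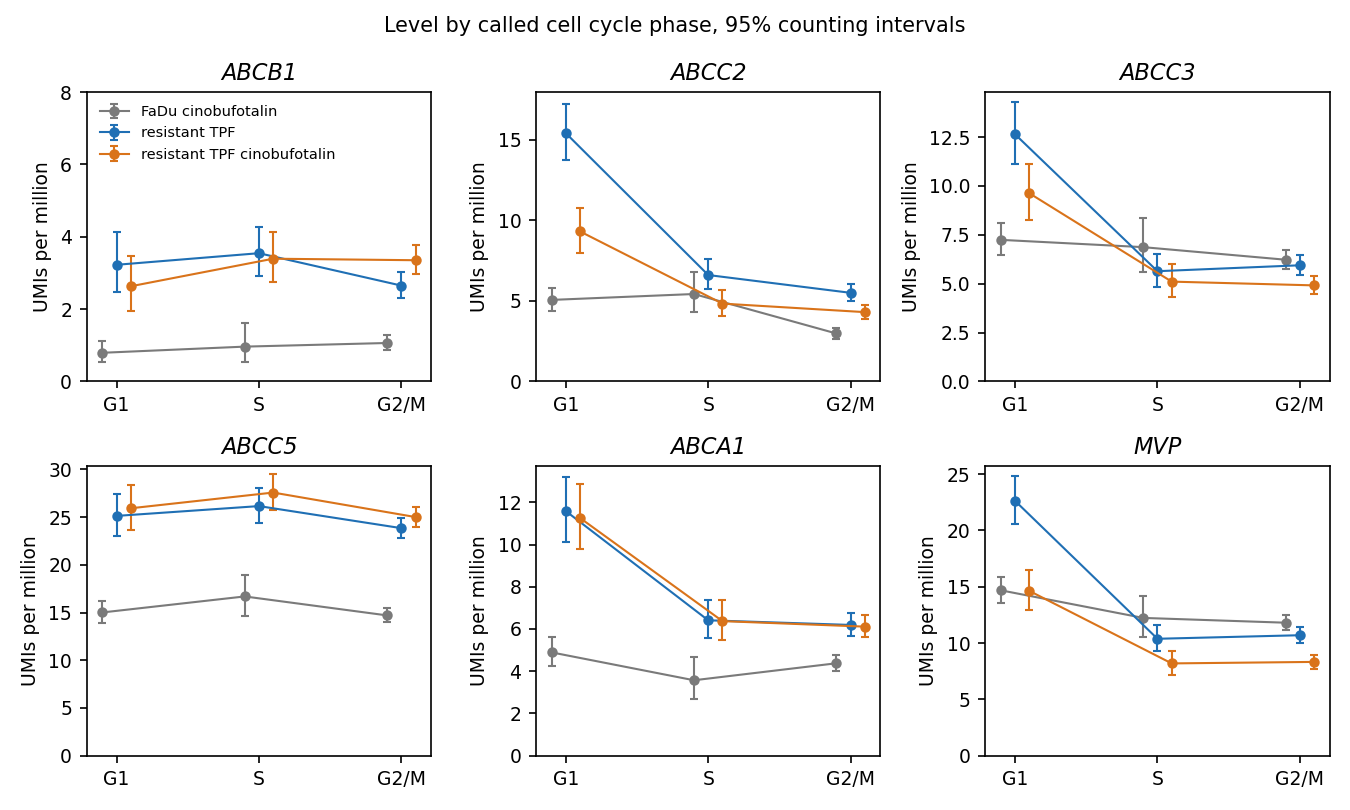
Level of 6 members in cells called G1, S and G2/M, in CPM, with 95% counting intervals; lines join the values of a library. ABCC2, ABCC3, ABCA1 and MVP are highest in G1 cells of both resistant libraries, and ABCC5 is nearly level across phases.

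The cells called G1 also held more MALAT1 in the resistant libraries, with a median of 1.61% against 0.721% in G2/M in resistant TPF and 1.14% against 0.665% in resistant TPF cinobufotalin. In FaDu cinobufotalin the medians were 0.105% and 0.0707%. Cells called G1 were also shallower than those called G2/M, with a median of 23060 against 25520.5 UMIs in FaDu cinobufotalin, 24130 against 29476 in resistant TPF and 16146 against 19103 in resistant TPF cinobufotalin. The part of MALAT1 and depth in the phase results was not tested. The lower ABCC2 and MVP of resistant TPF cinobufotalin than of resistant TPF were present in each phase. ABCC2 had log2 ratios of -0.73, -0.45 and -0.35 in G1, S and G2/M, and MVP had -0.63, -0.34 and -0.36. In G1 alone of the phases both passed 1.5-fold, against 4.09% of all genes, the ABCC2 level falling from 15.4 to 9.31 CPM and that of MVP from 22.6 to 14.6 CPM. ABCB1 in resistant TPF over FaDu cinobufotalin was at 2.03, 1.88 and 1.32 in the 3 phases.

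Members also differed with the depth of a cell. In the third of cells with the fewest UMIs, 5 of 9 members were at least 1.5-fold above the third with the most in FaDu cinobufotalin, against 34.0% of genes. The counts were 5 of 9 against 27.5% in resistant TPF and 5 of 9 against 22.4% in resistant TPF cinobufotalin. ABCC2 had the highest ratio of the 9 in each library, at 3.53-fold, 2.69-fold and 2.40-fold. ABCC3 was at 1.92-fold, 2.10-fold and 1.85-fold, and both passed 1.5-fold in all 3 libraries. Low-depth cells held more MALAT1, for example a median of 0.158% against 0.0251% in FaDu cinobufotalin, and its part in this was not tested.

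In single cells most members were seen as 1 UMI or none. An ABCB1 UMI was found in 140 of 6123, 345 of 4862 and 399 of 7525 cells, that is 2.29% (1.93% to 2.69%), 7.10% (6.39% to 7.85%) and 5.30% (4.81% to 5.83%). The median depth of all kept cells was 24440, 27920.5 and 17867 UMIs. With each cell thinned to 5000 UMIs the shares were 0.418% (0.271% to 0.617%), 1.63% (1.29% to 2.04%) and 1.71% (1.42% to 2.04%). The order of the resistant libraries seen without thinning was not seen at equal depth. Thinning left out 144, 205 and 571 shallower cells. These libraries hold FaDu cells or a resistant FaDu line and no cell type that should lack the genes, so the share given by free RNA could not be read from them. ABCC5 was found in 7.83%, 12.6% and 12.9% of thinned cells, and in 31.0%, 45.1% and 34.3% of unthinned ones. ABCC2 was found in 2.61%, 4.02% and 2.54%, with resistant TPF highest. MVP was found in 6.69%, 6.38% and 5.08%, with resistant TPF cinobufotalin lowest. The remaining members lay between 0.234% for ABCG2 in FaDu cinobufotalin and 8.23% for ABCC1 in the same library.

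**Figure D5:**
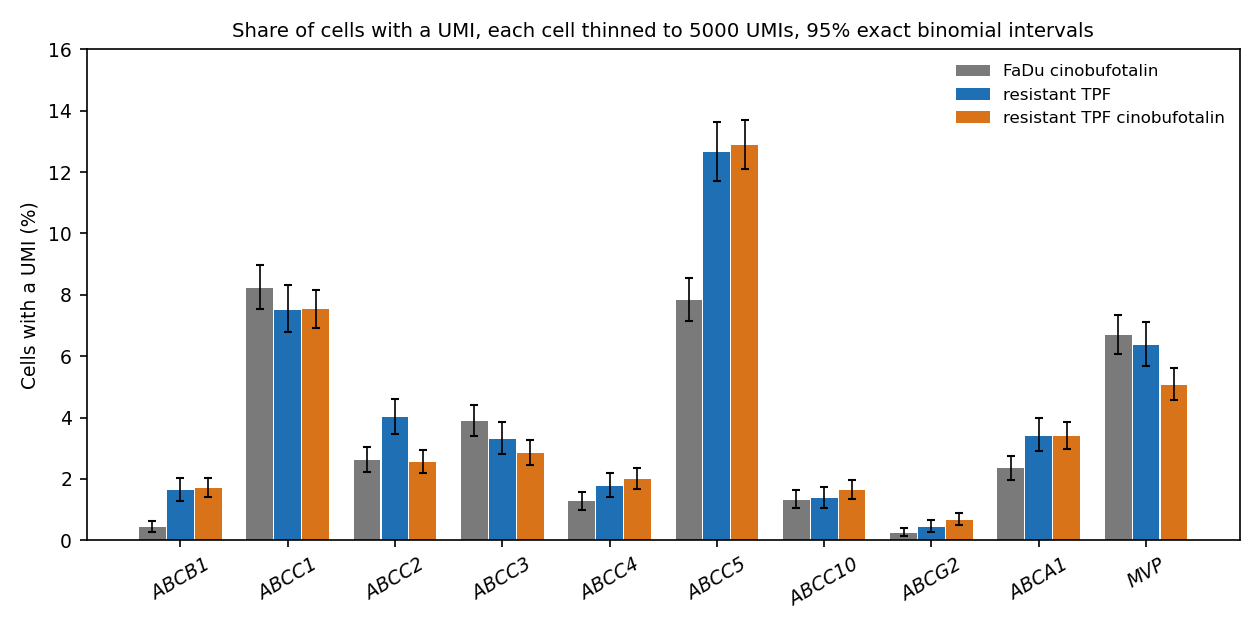
Share of cells with at least 1 UMI of each member, each cell thinned to 5000 UMIs; bars are libraries and error bars 95% exact binomial intervals. ABCC5 is at 7.83% in FaDu cinobufotalin and at 12.6% and 12.9% in the resistant libraries, and ABCB1 at 0.418%, 1.63% and 1.71%.

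A few cells stood out. In resistant TPF a single cell of 10399 UMIs held 13 ABCB1 UMIs, 3.27% of all ABCB1 UMIs of the library, and the next cell held 5. In FaDu cinobufotalin 1 cell held 9, or 5.49%, while the maximum in resistant TPF cinobufotalin was 3. ABCC2 in resistant TPF had the most cells with several UMIs relative to the other libraries: 52 cells with at least 3, against 9 in FaDu cinobufotalin and 10 in resistant TPF cinobufotalin. These counts are of unthinned cells, and resistant TPF had the deepest cells. The variance of ABCC2 over its mean was 1.57 there, against 1.19 and 1.25, but in cells thinned to 5000 UMIs it was 1.08, 1.14 and 1.12 in the order of the libraries. Leaving out the cell with the most UMIs of each member kept every log2 ratio within its counting interval.

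Cells carried few members at once. Thinned to 5000 UMIs, 29.4%, 35.0% and 33.4% of cells had a UMI of any member, and 4.78% to 6.61% had 2 or more. Over the 45 pairs of members, in cells thinned to 10000 UMIs, the share of cells with one gene was set beside that in cells with and without the other. In 0 pairs were the intervals apart in all 3 libraries, and in 8 pairs they were in at least 1. That was 9 of 135 combinations of pair and library. In 16 of the 45 pairs the share was higher in cells with the other gene in all 3 libraries. Like counts for other genes were not taken, so these counts say nothing particular about the members. ABCA1 with ABCC5 was the one pair apart in 2 libraries: ABCC5 was found in 30.1% of cells with ABCA1 and 22.5% of cells without it in resistant TPF cinobufotalin. In resistant TPF it was found in 27.2% of cells with ABCA1 (22.4% to 32.5%), against an interval of 18.8% to 21.2% in cells without it. ABCC3 with ABCC5 went the other way in resistant TPF, with ABCC5 in 14.1% of cells with ABCC3 and 21.0% of cells without. As a description, no gene of at least 10 CPM reached a mean correlation of 0.1 over cells with ABCC1, ABCC5 or MVP, the members at a mean of 10 CPM or more. The means were taken over the 3 libraries, with 4657 to 6954 thinned cells in each, and the cells of a library share its depth of sequencing and differ in MALAT1 content.

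Of 35 other ABC transporters, 20 were measured at 1 CPM or more. In resistant TPF over FaDu cinobufotalin 9 of the 20 were at least 1.5-fold higher, against 41.0% of all genes, and 0 lower, against 2.07%, with a median log2 ratio of 0.37 against 0.45 for all genes. Of the 10 at 5 CPM or more, ABCA12, a lipid transporter of the epidermal barrier, was highest at 3.99, 11.4 and 15.3 CPM, a log2 ratio of 1.51. ABCA5, a lysosomal lipid transporter, was at 6.61, 15.0 and 17.2 CPM, and ABCB9, a lysosomal peptide transporter, at 6.86, 13.0 and 12.7 CPM. TAP1 and TAP2, which carry peptides for MHC class I, were lowest of these 10 between the resistant libraries at -0.39 and -0.27. There 0 of the 20 were higher by 1.5-fold, against 0.430% of all genes, and 1 lower, against 0.778%. The lower one was ABCA4 at -0.73, a retinoid transporter named after its value was seen. With TMM factors 6 of the 20 were higher and 5 lower in resistant TPF over FaDu cinobufotalin, against 12.7% and 18.6% of all genes.

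Glutathione is the partner of several ABCC proteins. Of 16 measured genes for its synthesis and conjugation, 4 were at least 1.5-fold higher and 1 lower in resistant TPF over FaDu cinobufotalin, against 41.0% and 2.07% of all genes, with a median log2 ratio of 0.10. GCLC and GCLM, the subunits of the enzyme that limits glutathione synthesis, were at 0.92 and 0.65, and with TMM factors at 0.35 and 0.08. The other genes above 1.5-fold, named after their values were seen, were GGT1 and GSTM3. GSTK1, a mitochondrial and peroxisomal glutathione transferase, was lowest at -0.94. With TMM factors 0 were higher and 7 lower, against 12.7% and 18.6% of all genes. In resistant TPF cinobufotalin over resistant TPF 0 of the 16 passed 1.5-fold, where 0.430% of all genes were higher and 0.778% lower. MGST2 was highest at 0.28, and GSS, glutathione synthetase, lowest at -0.34.

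Of 24 regulators of efflux transporter genes 21 were measured. In resistant TPF over FaDu cinobufotalin 7 were at least 1.5-fold higher, against 41.0% of all genes, and 0 lower, against 2.07%. FOXO1 was at 7.26, 17.5 and 17.8 CPM, HIF1A at 38.5, 82.3 and 84.9 CPM and NFKB1 at 61.0, 114 and 127 CPM. With TMM factors FOXO1 alone was higher, against 12.7% of all genes, and NR1H2, RXRB and PPARG were lower, against 18.6%. None of the 21 passed 1.5-fold between the resistant libraries, where 0.430% of all genes were higher and 0.778% lower. The lowest was NR1H2, a liver X receptor and known activator of ABCA1 transcription, at -0.48, followed by KEAP1, the inhibitor of NRF2, at -0.40 and PPARG at -0.38.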

How the data were processed

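The authors deposited raw UMI counts for each gene and barcode. The submitters' processing notes name Cell Ranger 7.0 and hg38. The counts came from 10x 3' libraries sequenced on a NovaSeq per the labels. Feature and barcode tables carry names only. The sources used here do not name the gene annotation or say whether strand and intronic reads were used. Positions came from GENCODE 29, in which every feature ID was present.

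Kept barcodes had at least 1000 UMIs, 500 genes and a mitochondrial share of 20% or less. Their counts were summed, scaled to CPM and compared as log2 ratios with 95% Clopper-Pearson intervals (Python 3.11.15, numpy 2.4.6, scipy 1.17.1, pandas 2.3.3), which was tested on simulated data. Genes were counted at 1.5-fold and a mean of 1 CPM over the 3 libraries. TMM factors came from edgeR 4.0.16 in R 4.3.3, and phases from scanpy 1.11.5 and anndata 0.12.19. No doublet caller was run and no doublets were removed. Free RNA was not corrected for. A count of 3 UMIs was the lowest from which a ratio was given. Of each list, up to 3 highest and 3 lowest genes at 5 CPM or more could be named, with the nearest measured gene on each side of a member. ABCF2, on 2 rows, was left out. Members and lists were chosen with earlier results of these data known. Alternatives concerned cell filters, scaling, weighting, phase, MALAT1 share and gene limits.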

Additional observations from a re-analysis of the deposited data

How the results depend on the processing

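No paired analysis was possible because each group has 1 library. The counts of members at least 1.5-fold apart did not move by over 1.5 times with all barcodes, a mitochondrial share of 10% or less, 2000 or more genes per cell, equal weight per cell, other totals or cells over 2 times the median UMIs left out. Against FaDu cinobufotalin, 4 members were higher and 0 lower in each resistant library. At 2-fold, or at a mean of 10 CPM, 1 was higher in each, and the share of all genes at these limits was not taken. With TMM factors 1 was higher and 2 lower in each, where 12.7% and 14.1% of all genes were higher and 18.6% and 21.8% lower. Centred on the median gene 1 was higher in each, and 2 were lower in resistant TPF cinobufotalin. At 0.3% to 1% MALAT1 1 was higher in each, with 1 lower in resistant TPF and 2 in resistant TPF cinobufotalin. Of all genes, 24.8% and 26.3% were higher and 3.85% and 5.57% lower in these cells. Between the resistant libraries, 1 member was lower after thinning to 5000 UMIs, for which no share of all genes was taken. In cells called G1 2 were lower, against 4.09% of all genes.

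Classes chosen after seeing the data were also counted, for resistant TPF and resistant TPF cinobufotalin over FaDu cinobufotalin in turn. At 0% to 0.05% MALAT1 1 and 0 members were higher and 2 and 1 lower. Of all genes at 1 CPM or more over all kept cells, 26.1% and 19.2% were higher and 11.1% and 19.1% lower there. At 0.05% to 0.3% 0 and 0 were higher and 1 and 2 lower, against 22.4% and 20.7% of genes higher and 6.76% and 8.75% lower. At 1% to 2% 2 and 2 were higher and 1 and 1 lower, against 25.5% and 26.5% of genes higher and 3.77% and 5.54% lower. Of the MALAT1 classes, ABCG2 reached a mean of 1 CPM, and so entered these counts, only at 1% to 2%, where it is the second higher member and rests on 4 UMIs in FaDu cinobufotalin. Between the resistant libraries 1 was higher and 1 lower at 0% to 0.05%, against 8.92% and 22.0% of genes. There 1 was higher at 0.05% to 0.3%, against 3.79% of genes. In resistant TPF over FaDu cinobufotalin the log2 ratio of ABCC2 reversed to -0.17 at 0.3% to 1%, -0.16 at 0% to 0.05% and -0.63 at 0.05% to 0.3% MALAT1. That of ABCB1 reversed to -0.46 at 0.05% to 0.3%, and those of ABCC5 and ABCA1 to -0.054 and -1.34 at 0% to 0.05%, where resistant TPF had 75 cells. ABCA1 in resistant TPF cinobufotalin over FaDu cinobufotalin reversed to -0.18 and -0.12 in the lowest classes. The cause was not tested. All 30 shares of cells with a UMI moved with the depth of thinning, by construction. Few UMIs limit the precision of ABCG2 and of the MALAT1-poor classes.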

Other observations

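A run of ABC genes on chromosome 17 was picked out after its values were seen. ABCA9, ABCA6, ABCA10 and ABCA5 lie next to each other on the minus strand at chr17:68974488-69327244, and all belong to the lipid-transporting ABCA subfamily. ABCA9 was at 0.603, 3.24 and 3.15 CPM, ABCA6 at 0.561, 2.38 and 2.40 CPM, and ABCA10 at 0.814, 4.16 and 4.98 CPM. Their log2 ratios in resistant TPF over FaDu cinobufotalin were 2.43, 2.09 and 2.36, and that of ABCA5 was 1.18. With TMM factors the 4 were at 1.86, 1.52, 1.79 and 0.61. In cells at 0.3% to 1% MALAT1 they were at 0.83, 0.83, 1.49 and 0.68, each with an interval above 0. MAP2K6, the next gene beyond ABCA5, was at 0.627, 0.540 and 0.356 CPM, and ABCA9-AS1, antisense to ABCA9, at 1.11, 1.04 and 0.950 CPM. ABCA10 overlaps the end of ABCA5, so reads there are uncertain. In resistant TPF cinobufotalin over resistant TPF the 4 were at -0.04 to 0.26. ABCA8, beside ABCA9 on the same strand, had 7, 43 and 18 UMIs, a log2 ratio of 2.91 in resistant TPF over FaDu cinobufotalin and of -1.25 (-2.13 to -0.43) between the resistant libraries. In cells at 0.3% to 1% MALAT1 the interval of its first ratio ran from -0.61 to 7.60.

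Partners of the vault and of efflux pumps at the membrane were not part of the comparisons above. Of 10 such genes 8 were measured. In resistant TPF over FaDu cinobufotalin 2 were at least 1.5-fold higher and 1 lower, against 41.0% and 2.07% of all genes. With TMM factors 0 of the 8 were higher and 2 lower, against 12.7% and 18.6% of all genes. PARP4, the vault poly(ADP-ribose) polymerase, was at 8.07, 15.5 and 14.7 CPM, and TEP1, the other vault protein, at 7.31, 9.88 and 9.31 CPM, so that in resistant TPF over FaDu cinobufotalin both had a higher log2 ratio (0.94 and 0.43) than MVP (-0.02). The other gene above 1.5-fold was RDX, and the lower one was CAV1, the coat protein of caveolae, at a log2 ratio of -1.07. Between the resistant libraries PARP4 and TEP1 were at -0.08 and -0.09, beside -0.43 for MVP.

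Of 20 other drug transporters, mostly uptake carriers, 15 were measured. In resistant TPF over FaDu cinobufotalin their median log2 ratio was 0.36, against 0.45 for all genes. Of the 15, 5 were at least 1.5-fold higher, against 41.0% of all genes, and 0 lower, against 2.07%. With TMM factors 2 were higher and 3 lower, against 12.7% and 18.6% of all genes. SLCO1B1, an uptake carrier best known from liver whose substrates include taxanes, was highest of those at 5 CPM or more, at 2.48, 13.6 and 11.5 CPM, a log2 ratio of 2.45 (2.29 to 2.61), or 1.88 with TMM factors. SLC29A2, a nucleoside carrier, was lowest at 16.5, 12.3 and 10.3 CPM. The copper transporter SLC31A1, linked to cisplatin uptake, was at 10.8, 15.4 and 14.4 CPM.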
